A study of Mus musculus with 24 samples.

Results

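The Rab genes described here are the 54 genes, of 12767 listed in the deposited table, whose symbol is Rab followed by a number and at most a letter. Their messenger RNA was measured in cells taken with CD11c beads from the mesenteric lymph nodes of mice carrying MC38 colon tumours under the skin. The sources name these cells dendritic cells, but markers of macrophages, T cells and NK cells were also present. Rab proteins are small GTPases of vesicle traffic. Each sits on its own set of membranes, is switched on by a guanine nucleotide exchange factor (GEF), recruits effectors such as tethers and motor adaptors while GTP is bound, and is switched off by a GTPase-activating protein (GAP). In dendritic cells they guide antigen uptake through early and late endosomes, the recycling and delivery of MHC molecules and Toll-like receptors to the surface, and the release of granules.

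The 24 libraries form 8 groups of 3. Wild-type (WT) and Myd88-knockout (KO) C57BL/6 mice, female and 6 to 8 weeks old per the labels, received control IgG, anti-PD-1 antibody, live LGG (Lactobacillus rhamnosus GG) by mouth, or LGG together with anti-PD-1, here called the combination. Myd88 is the adaptor of most Toll-like receptors. All mice were injected with 1000000 MC38 cells, were pooled and randomised at tumours of about 100 mm3 after 7 to 10 days, and were treated with 2 doses a week for 2 to 3 weeks, with 200 µg of antibody per mouse. For LGG alone the labels record no antibody, which means that the comparison with IgG also compares no injection with an injection. Whether the 3 libraries of a group came from different animals is not given, and p-values then measure only the spread between libraries, which may be technical. No batch or date is named.

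Reads assigned to listed genes ran from 24531528 to 49272593 per library, and the 54 Rab genes took between 0.288% and 0.392% of them. On a principal component analysis 3 knockout libraries stood apart from their groups, KO anti-PD-1 replicates 2 and 3 and KO LGG replicate 2. Since all groups share 1 estimate of the spread, most counts are given with and without them. Whole-gene Myd88 values were 1723 to 2232 normalised counts over the wild-type libraries and 697.3 to 1837 over the knockout libraries, and a whole-gene count cannot show the loss of an exon. The Y-linked gene Ddx3y was at or below 4.50 in every wild-type library and at 1241 to 2136 in every library labelled knockout. Eif2s3y, Kdm5d and Uty, also Y-linked, were at or below 6.43 in wild-type libraries and at or above 190.7 in knockout libraries. These values go against the label female for the knockout libraries, and sex and genotype cannot be told apart between the genotypes. Of 14 fixed dendritic cell markers 13 were listed, and they did not share a direction. In KO against WT under IgG 4 were higher and 4 lower, and in WT LGG against IgG 7 rose and 3 fell. Flt3 ran from 5.84 to 9.78 in KO IgG, from 96.0 to 121 in WT IgG and from 616 to 658 in WT LGG. Itgax ran from 36060 to 37760, from 22690 to 23390 and from 9637 to 10020 in the same 3 groups. The summed level of 12 macrophage markers was 276934 to 298958 in WT IgG, 63652 to 69913 in WT LGG and 388042 to 433419 in KO IgG. By single markers, 3 of the 12 were higher and 5 lower in KO against WT under IgG. In WT LGG against IgG 1 of them rose and 9 fell. The share of such cells in the Rab values was not tested.

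Promoter sequence is shown first, for the short motifs found in members that moved with LGG. RefSeq (build GRCm38.p6) gave a promoter for 43 of the 54 members, and the 250 bases before each start were searched on both strands. Some of these starts lie inside the gene as annotated. The windows printed below for Rab15, Rab19, Rab20 and Rab27a are within the annotated gene, which for Rab27a is chr9:73044854-73097629. The letters GGGANNNNCC, a loose form of the site read by NF-κB, occurred in 6 of the 43 members, or 14.0%, below the 19.7% of the 27025 genes with a promoter. Among the members that fell with LGG in wild-type mice they were found in 3 of 6, among those that rose in 0 of 19, and among the others in 3 of 18. This split depends on the fit. Without the 3 knockout libraries that stood apart, the 3 others were called too: Rab7 rose, and Rab5c and Rab34 fell. The 3 that fell with all libraries in the fit are printed along the strand of the gene, with the match in capitals. The match of Rab15 is on the opposite strand, and its capitals give GGGANNNNCC only when read from there.
Rab15, chr12:76818450-76818479, minus strand: ctagcttgagGGGGTTTCCCaggggttggt
Rab19, chr6:39381320-39381349, plus strand: gcaagtgggaGGGATTGCCCttgtttccct
Rab31, chr17:65772945-65772974, minus strand: actttatggtGGGACTACCCagagactttg

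CACGTG, the core of an E-box, which reads the same on both strands, occurred in 5 of the 43 members and in 6.86% of all genes with a promoter. It was found in 4 of the 19 members that rose with LGG in wild-type mice, in 0 of the 6 that fell, and in 1 of the 18 others. That other is Rab5a, which rose in the fit without the 3 knockout libraries that stood apart. The match is in capitals for 3 of those that rose.
Rab20, chr8:11478671-11478696, minus strand: gccgggcaccCACGTGgtcgcagggc
Rab21, chr10:115315606-115315631, minus strand: ccaccgcggtCACGTGacgaggggtg
Rab27a, chr9:73063898-73063917, plus strand: cttgCACGTGctcctccgtc
The letters GAAANNGAAA, searched as a form of the interferon-stimulated response element, were found in Rab19, the single member of the 43, against 3.46% of all genes. A match is a description of letters, not a site or a cause, and binding was not measured. No share was taken among all genes that rose or fell, so the split by direction is a description of these members.

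The most abundant members are the housekeeping Rabs of the endosome and Golgi. To compare genes, normalised counts were divided by the length of the exons in kilobases. Rab7, which drives late endosomes to lysosomes, ranked first in all 8 groups, with a mean level of 4703 per kilobase in WT IgG and 7561 in KO IgG. Rab5c, a Rab of early endosome fusion, ranked second in all 8, with 4041 per kilobase in WT IgG and 5016 in KO IgG. Rab1b, which carries cargo from the ER to the Golgi, followed with 3294 per kilobase in WT IgG. Rab8b, which brings vesicles to the plasma membrane, had rank 6 in WT IgG with 1409 per kilobase and rank 3 in WT LGG with 2898. Of the 54 members, 26 had a mean of at least 1000 normalised counts over all libraries and 9 had a mean below 50. All 54 passed the filter of a mean of at least 10.

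LGG in wild-type mice moved the Rab genes more often upward than downward. With limma on log2(value + 1) and Benjamini-Hochberg adjusted p below 0.05, 23 of 54 members rose against IgG, which is 42.6%, where 27.4% of all 12749 genes tested rose. Another 8 members fell, or 14.8%, where 28.2% of all genes fell. The median log2 change was 0.34 over the members and near 0 over all genes. In a fit that left out the 3 knockout libraries that stood apart, 31 members rose, where 36.7% of all genes rose, and 11 fell, where 36.7% fell. Rises reached 3.70 and falls reached -2.84 on the log2 scale, and 10 rises and 5 falls were of at least 1. In bulk samples such as these, fewer cells of a type and less RNA per cell cannot be told apart.

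**Figure D1:**
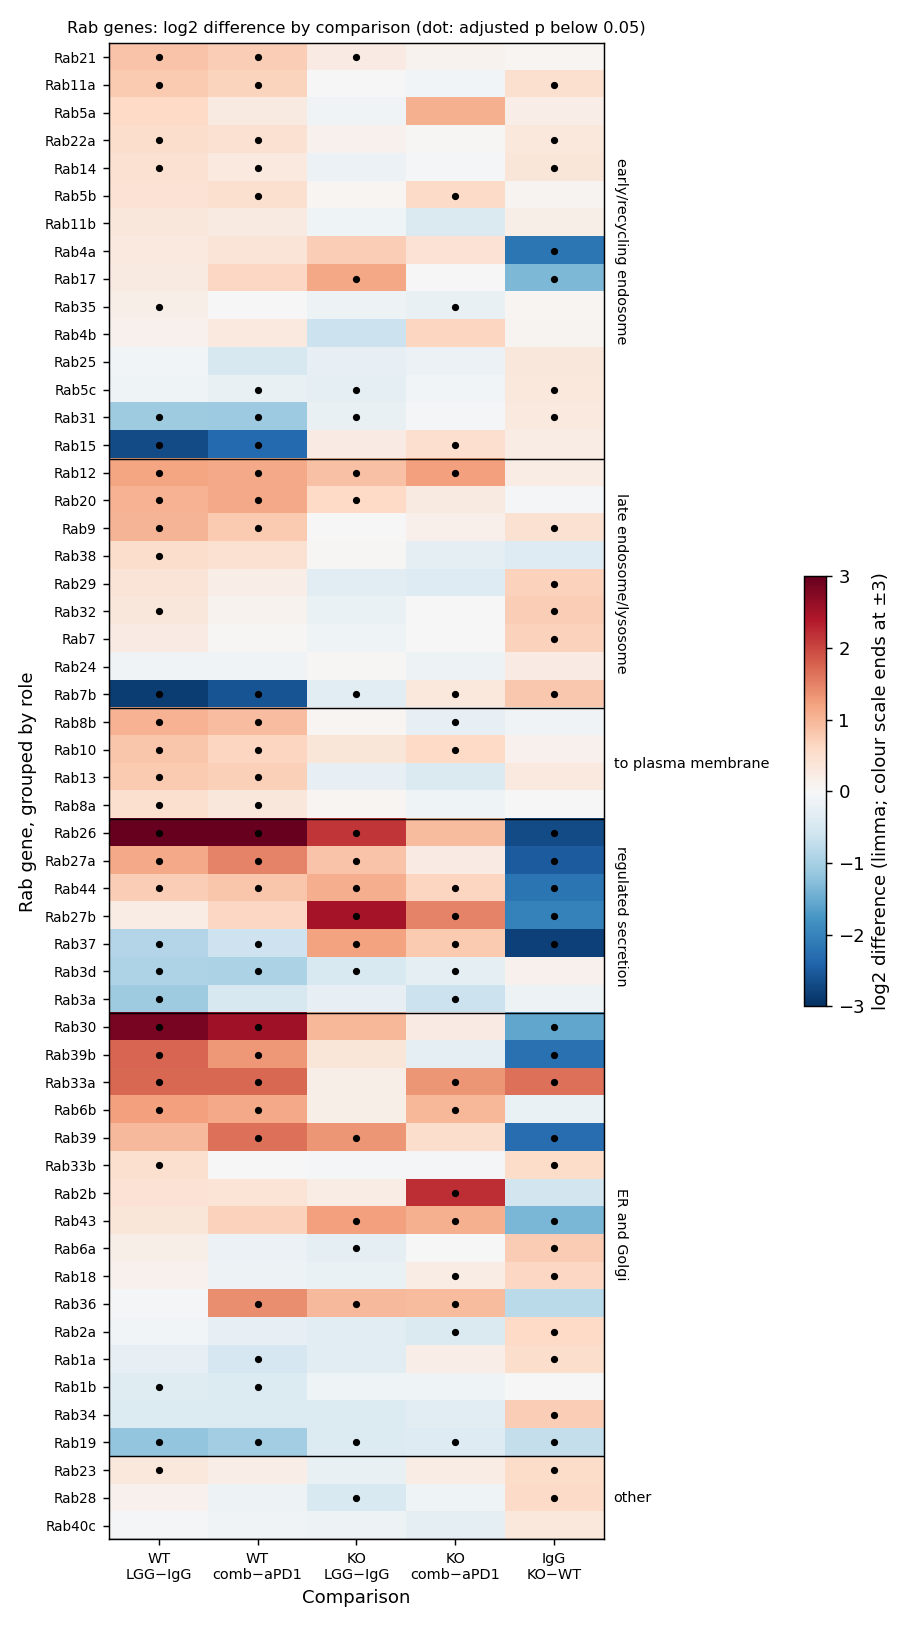
Log2 difference of each of the 54 Rab genes (rows, grouped by role) in 5 comparisons (columns), with red for higher, blue for lower and a black dot where the adjusted p was below 0.05. The wild-type columns hold 23 rises and 8 falls with LGG alone and 21 rises and 9 falls with the combination. In the last column, KO against WT, the blue block among the regulated secretion rows marks Rab27a, Rab27b, Rab26, Rab37 and Rab44.

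All 4 Rabs that deliver vesicles to the plasma membrane rose with LGG in wild-type mice, where 27.4% of all genes rose. Their median log2 change was 0.81. Rab8b stood at 6458, 6797 and 6747 normalised counts in the IgG libraries and at 13400, 13470 and 14270 in the LGG libraries. Every LGG library was above every IgG library, and the log2 rise was 1.04 ± 0.08 (SE; limma adjusted p = 8.6e-10). Rab10, which carries Toll-like receptor 4 to the surface of macrophages, went from 2981, 3044 and 2862 to 5218, 5196 and 5451, again with no overlap. Its log2 rise was 0.84 ± 0.15. Rab13, a Rab of junctions and cell edges, rose by 0.79 ± 0.24 and Rab8a, the close relative of Rab8b, by 0.48 ± 0.14. Within each library the per-kilobase ratio of Rab8b to Rab8a was 1.40 to 1.52 in WT IgG and 1.98 to 2.37 in WT LGG, so the change was unequal between the relatives.

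Rab7b fell more than any other member, while its relative Rab7 did not fall. Rab7b, at chr1:131688695-131715439 (mm10), returns cargo from late endosomes to the Golgi and is known to limit Toll-like receptor signalling. Its values were 1979, 1835 and 1961 in the WT IgG libraries and 260.8, 255 and 288.4 in the WT LGG libraries, a log2 change of -2.84 ± 0.11 (limma adjusted p = 2.0e-14). The libraries were far apart, and the other wild-type pair showed the same gap, with 2090, 2047 and 2108 under anti-PD-1 and 320.3, 337.1 and 383.9 under the combination. Rab7 went from a mean of 12270 to 14490, with a log2 difference of 0.24 ± 0.13 and an adjusted p of 0.14. Without the 3 knockout libraries that stood apart, which share the estimate of spread, the same difference had an error of 0.05 and Rab7 rose (limma adjusted p = 0.00017). The per-kilobase ratio of Rab7b to Rab7 was 0.0869 to 0.0896 in WT IgG and 0.00952 to 0.0120 in WT LGG.

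Of the 9 Rabs of late endosomes, lysosomes and related organelles, 5 rose in wild-type mice and Rab7b alone fell, where 27.4% of all genes rose and 28.2% fell. Rab12, which sends recycling receptors to lysosomes, was at 1138, 1066 and 1145 with IgG and at 2501, 2535 and 2563 with LGG, a rise of 1.18 ± 0.13. Rab20, a Rab of maturing phagosomes, went from 1225, 1113 and 1161 to 2413, 2592 and 2248, a rise of 1.05 ± 0.18. A neighbouring noncoding gene overlaps 25.6% of the exon bases of Rab20. Neither gene's libraries overlapped between the groups. Rab9, which returns mannose 6-phosphate receptors to the Golgi, rose by 1.01 ± 0.11. The pair that serves lysosome-related organelles, Rab32 and Rab38, rose less, by 0.34 ± 0.08 and 0.53 ± 0.19. Rab38 did not pass without WT IgG replicate 2 or 3 (0.49 and 0.54) or WT LGG replicate 1 (0.43). Rab29 (0.39 ± 0.24) and Rab24 (-0.11 ± 0.20) did not pass the test. Without the 3 knockout libraries Rab29 rose (0.39 ± 0.10, limma adjusted p = 0.0013) and Rab24 still did not pass, so that 7 of the 9 rose and 1 fell. In that fit 36.7% of all genes rose and 36.7% fell.

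Early and recycling endosome Rabs were split. Of 15 members, 5 rose, 2 fell and 8 did not pass. The share that rose, 33.3%, was near the 27.4% of all genes, and 13.3% fell beside 28.2% of all genes. Rab15, an endosomal Rab at chr12:76797960-76822908 (mm10), had 839.3, 893.5 and 776.1 normalised counts in WT IgG and 111.5, 134.7 and 143.7 in WT LGG, a log2 change of -2.68 ± 0.11 (limma adjusted p = 4.6e-14). Rab31, which links the Golgi and endosomes, went from 1496, 1426 and 1524 to 657.6, 712.5 and 767.6, or -1.06 ± 0.07. Both sets of libraries were without overlap. The rises were Rab21 (0.85 ± 0.06), which carries integrins, Rab11a (0.79 ± 0.16), the main Rab of recycling endosomes, Rab22a (0.54 ± 0.07), which recycles cargo taken up without clathrin, Rab14 (0.45 ± 0.07), and Rab35 (0.18 ± 0.07). The 3 Rab5 genes of early endosome fusion did not pass, with 0.59 ± 0.44 for Rab5a, 0.44 ± 0.20 for Rab5b and -0.12 ± 0.08 for Rab5c. The WT IgG and WT LGG libraries of Rab5a did not overlap (1337, 1364 and 1235 against 1869, 1915 and 2157), nor did those of Rab5b. In the fit without the 3 knockout libraries that stood apart the difference was the same, its error was 0.08 for Rab5a and 0.07 for Rab5b, and both rose (limma adjusted p = 1.2e-06 and 6.7e-06). Rab5c fell in that fit (limma adjusted p = 0.012). Rab4a, a Rab of fast recycling, did not pass (0.28 ± 0.38). In that fit 8 of the 15 rose and 3 fell, where 36.7% of all genes rose and 36.7% fell.

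Granule Rabs moved in both directions, 3 up and 3 down of 7, where 27.4% of all genes rose and 28.2% fell. Rab26, a secretory granule Rab at chr17:24527241-24534210 (mm10), was near the floor of the table in WT IgG, at 17.42, 9.94 and 21.46, and reached 201.8, 228.2 and 212.3 in WT LGG. Its log2 rise of 3.70 ± 0.40 was the largest among the 54 (limma adjusted p = 1.4e-07), and 10.3% of its exon bases overlap other genes, Traf7 among them. Rab27a, which docks secretory lysosomes and exosome precursors at the membrane, went from 964.4, 1007 and 873.2 to 2010, 2053 and 2214, a rise of 1.14 ± 0.11. Rab44, a large Rab with calcium-binding motifs, rose by 0.75 ± 0.10. In none of the 3 did the groups overlap. Rab37, of mast cell and cytokine granules, fell from 899.1, 800.4 and 845 to 440.3, 494.5 and 451.9 (-0.87 ± 0.12). Rab3d, of regulated exocytosis, fell from 1744, 1816 and 1846 to 959.7, 924.3 and 973.4 (-0.92 ± 0.06), and Rab3a fell from 114.3, 108.4 and 118.6 to 54.6, 51.4 and 54.5 (-1.07 ± 0.24). The LGG libraries of these 3 lay below all IgG libraries. Markers of other cell types moved in the same comparison. The summed level of 4 listed plasmacytoid dendritic cell markers, 2 of which rose, was 8730 to 9968 with IgG and 28172 to 33169 with LGG. That of 7 NK markers, of which 3 rose and 2 fell, was 36982 to 39195 and 54245 to 62417, and that of 5 B cell markers, of which 3 rose, was 254 to 271 and 488 to 555. Their part in the granule Rab values was not tested.

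ER and Golgi Rabs gave 5 rises and 2 falls among 16, and 8 rises and 4 falls without the 3 knockout libraries that stood apart. Of all genes 27.4% rose and 28.2% fell with all libraries, and 36.7% rose and 36.7% fell without the 3. With all libraries the share of this role that rose, 31.2%, was near that of all genes. Rab30, a Golgi Rab that also acts in autophagy of bacteria, was at 28.3, 32.5 and 18.1 in WT IgG and at 196.2, 218 and 157.8 in WT LGG, a rise of 2.84 ± 0.41. Rab39b, X-linked and active between ER and Golgi, went from 32.7, 35.2 and 28.2 to 91.4, 121.3 and 119.3, a rise of 1.75 ± 0.23. Rab33a, a close relative of the autophagy Rab Rab33b, went from 25.0, 15.4 and 26.0 to 76.9, 76.1 and 68.6, a rise of 1.73 ± 0.28. None of these overlapped between groups. Rab6b, the less abundant Rab6 of Golgi transport, rose from 107.8, 120.2 and 99.4 to 246.3, 270.4 and 253.7 (1.23 ± 0.13), and Rab33b rose by 0.48 ± 0.09. Rab19, a Golgi Rab, fell from 967.7, 979.3 and 960.2 to 463.7, 398.9 and 420.9 (-1.18 ± 0.10), and Rab1b fell from 7555, 7157 and 7739 to 6183, 5917 and 5406 (-0.36 ± 0.11). Rab1a, Rab2a, Rab6a and Rab18, the abundant members of this role, did not pass, with log2 differences of -0.24, -0.08, 0.17 and 0.13. When the 3 libraries were left out Rab1a fell (limma adjusted p = 0.00017), Rab6a and Rab18 rose (limma adjusted p = 0.0053 and 0.024), and Rab2a still did not pass. Rab34, another Golgi Rab, fell in that fit (-0.41 ± 0.13). Rab43 (0.37 ± 0.40) and Rab39 (0.98 ± 0.44, limma adjusted p = 0.067) did not pass either, but Rab39 passed with edgeR, with DESeq2 and without the 3 libraries (limma adjusted p = 0.039). Rab43, which serves antigen cross-presentation, shares 75.4% of its exon bases with a readthrough gene, so its count is uncertain, as are those of Rab2b, Rab24 and Rab4b, which overlap other genes over at least 62.4% of their exon bases. Overlaps of 18.6% to 19.0% were found for Rab39b, Rab33b and Rab6a, and 11.2% of the 50-base stretches of Rab7 also occur in pseudogenes. Whether the counting used strand is not given in the sources used here.

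**Figure D2:**
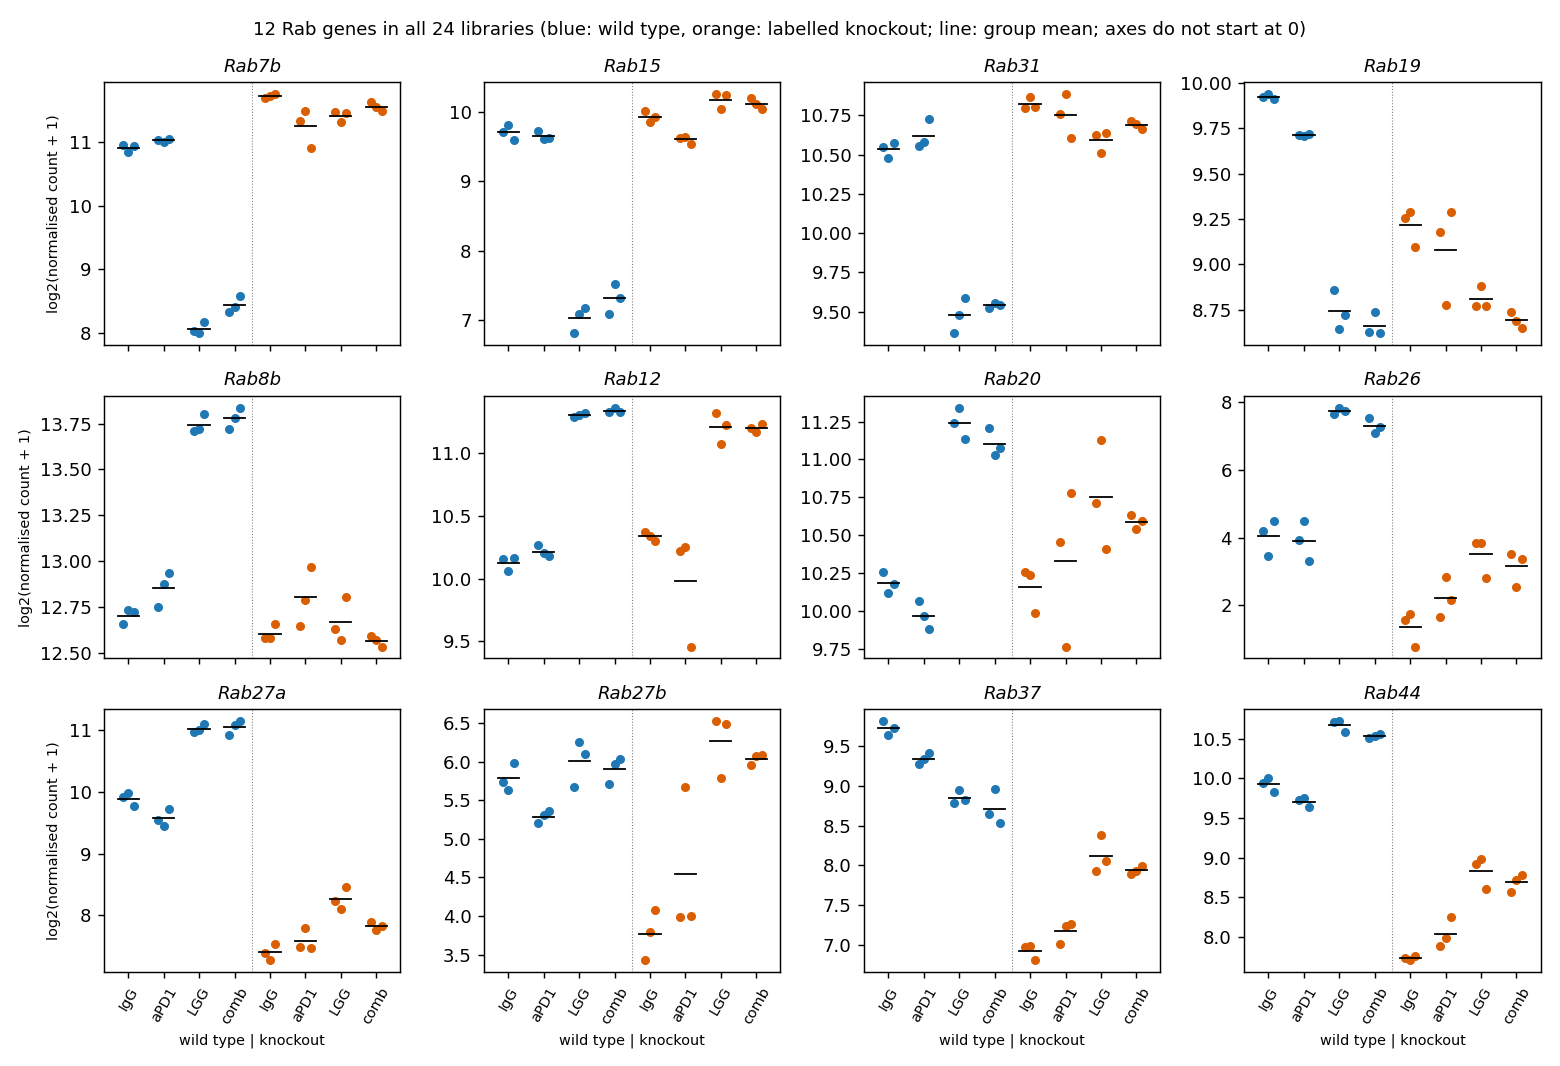
Log2(normalised count + 1) of 12 Rab genes in all 24 libraries (points, wild type in blue and labelled knockout in orange, horizontal line for the mean of 3 libraries). Rab7b and Rab15 drop in the wild-type LGG and combination libraries but are not below 744.6 in any knockout library, and Rab27a, Rab37 and Rab44 are lower in all knockout libraries than in all wild-type libraries.

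The sum of all 54 per-kilobase levels was 30460 ± 405 (SD, n = 3) in WT IgG and 35670 ± 1129 in WT LGG. Within it the 4 Rabs of plasma membrane delivery held 11.1% ± 0.27 with IgG and 17.0% ± 0.67 with LGG. The 16 ER and Golgi Rabs held 26.6% ± 0.13 and 19.4% ± 0.19. Late endosome and lysosome Rabs held 29.2% ± 0.37 and 32.4% ± 0.84, and granule Rabs 3.57% ± 0.10 and 3.59% ± 0.16. Early and recycling endosome Rabs held 28.3% ± 0.18 and 26.6% ± 0.18, and the 3 Rabs of no listed role 1.16% ± 0.05 and 1.03% ± 0.03. The range of the 3 IgG libraries overlapped that of the 3 LGG libraries for granule Rabs and for no other role. In KO mice the delivery share was 9.02% ± 0.20 with IgG and 10.7% ± 0.97 with LGG, and the ER and Golgi share 26.3% ± 0.12 and 23.9% ± 0.18.

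**Figure D3:**
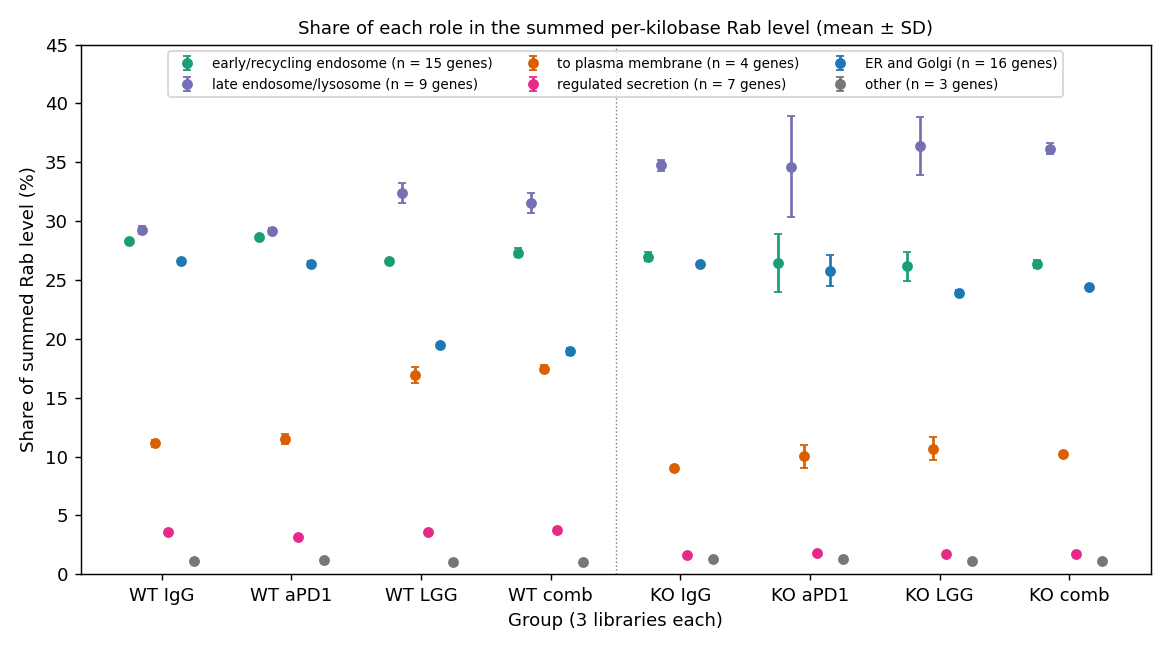
Share (%) of each role in the summed per-kilobase level of the 54 Rab genes, by group, as mean and SD of 3 libraries. Delivery to the plasma membrane goes from 11.1% in WT IgG to 17.0% in WT LGG, and the ER and Golgi share goes from 26.6% to 19.4%.

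The LGG effect was measured a second time in wild-type mice that received anti-PD-1, by setting the combination against anti-PD-1 alone, with no library in common with the first pair. There 21 of 54 members rose, where 27.7% of all genes rose, and 9 fell, where 29.1% of all genes fell. The members' median was 0.30. Without the 3 knockout libraries 28 rose and 14 fell, where 37.0% and 37.5% of all genes did. Of the 23 members that rose without antibody, 18 also rose here, and of the 21 that rose here, 18 had risen there. For falls, 7 of the 8 fell again, and 7 of the 9 had fallen before. The sign was the same for 22 of the 23 rises and all 8 falls, the exception being Rab35, at 0.18 without and -0.02 with antibody. This agreement was not counted over all genes, so whether it is particular to the Rab genes was not tested. Rab7b (-2.58 ± 0.11), Rab15 (-2.34 ± 0.11), Rab31 (-1.08 ± 0.07) and Rab19 (-1.05 ± 0.10) fell the most. Rab26 (3.39 ± 0.40), Rab30 (2.55 ± 0.41) and Rab33a (1.72 ± 0.28) rose the most, followed by Rab39 (1.66 ± 0.44), which had 6.28, 12.05 and 6.21 counts under anti-PD-1 and 35.7, 29.2 and 18.6 under the combination. All 4 delivery Rabs rose again, Rab8b by 0.93 ± 0.08. Rab36, a Golgi Rab, rose by 1.39 ± 0.32 here after -0.03 ± 0.32 without antibody, and its anti-PD-1 libraries were the low ones, at 18.8, 10.4 and 12.4 against 37.0, 33.4 and 31.6 with IgG.

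LGG in Myd88-knockout mice changed 12 members upward and 7 downward against IgG, where 18.1% of all genes rose and 14.2% fell. The members' median log2 change was 0.01. The share of members that rose, 22.2%, and the share that fell, 13.0%, were near those of all genes. Without the 3 libraries that stood apart, 18 rose and 18 fell, where 32.0% and 29.4% of all genes did. The largest rises were in granule Rabs, where 5 of 7 rose and 1 fell, with a median of 1.10. That split was the same without the 3 libraries, with a median of 1.03.

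Rab27b, the second Rab27 of secretory organelles, was at 9.78, 12.9 and 15.8 in KO IgG and at 90.8, 54.0 and 88.4 in KO LGG, a log2 rise of 2.50 ± 0.33 (limma adjusted p = 6.4e-06). In WT mice it was at 52.2, 48.8 and 62.1 with IgG and 50.2, 75.1 and 67.6 with LGG, with overlapping libraries and a log2 difference of 0.22 ± 0.33. Rab37 went from 123.9, 125 and 110.9 in KO IgG to 242.8, 332.6 and 265.3 in KO LGG, a rise of 1.21 ± 0.12 in the genotype where LGG went with more of it. In wild-type mice the same gene had fallen. Rab44 rose from 211.9, 208 and 216 to 483.9, 504.5 and 387.8 (1.10 ± 0.10), and Rab27a from 166.2, 153.1 and 184.3 to 300.4, 272.5 and 348.7 (0.86 ± 0.11). All LGG libraries of these 4 genes were above all IgG libraries. Rab26 also passed the test, with 0.72 to 2.34 normalised counts in KO IgG and 6.03 to 13.5 in KO LGG, too few for a fold. Markers of T cells and NK cells moved with these genes: all 14 T cell markers and all 7 listed NK markers rose in the same comparison, with summed levels of 1647 to 1992 and 3371 to 3914 in KO IgG, and of 5423 to 8340 and 11539 to 17620 in KO LGG. Their part in the granule Rab values was not tested.

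Rab12 rose in knockout mice by 0.87 ± 0.13, Rab20 by 0.59 ± 0.18 and Rab21 by 0.24 ± 0.06. Rab43, whose count is uncertain as given above, rose by 1.22 ± 0.40, from 92.6, 88.8 and 108 to 235.6, 128.9 and 376.8. Rab39, also called as higher, was at 1.96 to 3.51 counts in KO IgG and 3.68 to 14.4 in KO LGG, too few for a fold. Rab36 (0.98 ± 0.32) and Rab17 (1.16 ± 0.39) completed the rises. Rab17 was at 11.73, 8.18 and 5.76 in KO IgG and at 17.09, 39.28 and 11.05 in KO LGG, with overlap, and the high value is the library that stood apart. Rab17 did not pass without the 3 libraries (0.68 ± 0.31, limma adjusted p = 0.062), and Rab36 did (0.83 ± 0.28). The falls were small, between -0.45 and -0.23. Rab3d fell from 2052, 2008 and 1869 to 1461, 1424 and 1442 (-0.45 ± 0.06), and Rab28, a Rab of cilia, from 1063, 1011 and 939.7 to 733, 754.8 and 718.4 (-0.45 ± 0.09). Rab19 fell by 0.41 ± 0.10, and Rab7b went from 3301, 3376 and 3442 to 2829, 2532 and 2816 (-0.31 ± 0.11). Rab5c fell by 0.28 ± 0.08. In each of these 5 genes the LGG libraries were below the IgG libraries. Some calls rested on single libraries: Rab7b did not pass without any KO IgG replicate or without KO LGG replicate 1 or 2 (-0.34 to -0.26), Rab20 without KO IgG replicate 3 or KO LGG replicate 2 (0.50 and 0.40), Rab43 without KO IgG replicate 1 or 2 or KO LGG replicate 1 or 3 (0.85 to 1.19), and Rab39 without KO IgG replicate 1 or 3 or KO LGG replicate 1 or 3. No Rab of plasma membrane delivery passed, with 0.06 for Rab8b, 0.36 for Rab10, 0.06 for Rab8a and -0.24 for Rab13. Without the 3 libraries Rab10 rose by 0.50 ± 0.06 and Rab13 fell by 0.46 ± 0.12. The Rab5 pair that carried large errors also moved: Rab5a was at 1702, 802.7 and 1963 in KO LGG, the low value being the library that stood apart, and its log2 difference was -0.11 ± 0.44 with the 3 libraries and 0.28 ± 0.09 without them. Rab5b was at 0.05 ± 0.20 and 0.32 ± 0.08. Rab11a (-0.01), Rab4a (0.74), Rab32 (-0.19), Rab38 (0.03) and Rab7 (-0.13) did not pass with all libraries. Without the 3 libraries Rab4a rose (0.76) and Rab32 (-0.17) and Rab7 (-0.25) fell.

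The combination against anti-PD-1 in knockout mice gave 14 rises, where 19.7% of all genes rose, and 6 falls, where 17.0% fell. Without the 3 libraries a single anti-PD-1 library is left, which is assumed to vary like the other groups, so no count is given for that fit. Of the 12 members that rose with LGG alone, 6 rose here too, as did 6 of the 14 that rose here, and 2 of the 7 falls were shared with the 6 falls here. The sign was the same for 11 of the 12 rises and 6 of the 7 falls. Over all genes this agreement was not counted either. Rab7b, which fell by 0.31 with LGG alone, rose here by 0.31 ± 0.11 (limma adjusted p = 0.030), and by 0.22 ± 0.09 without the 3 libraries. The largest called rise was that of Rab2b (2.21 ± 0.73), whose count is uncertain and whose libraries overlapped, at 3.19, 31.5 and 1.15 under anti-PD-1 and 22.9, 34.0 and 34.0 under the combination. Rab27b had 14.9, 49.7 and 14.9 counts under anti-PD-1, where the high value is replicate 2, one of the libraries that stood apart, and 61.1, 66.0 and 66.8 under the combination (1.48 ± 0.33). Rab33a (1.32 ± 0.28), Rab12 (1.22 ± 0.13) and Rab6b (0.99 ± 0.13) rose with no overlap. Rab37 rose by 0.77 ± 0.12 and Rab44 by 0.65 ± 0.10. The falls without overlap were Rab19 (-0.39 ± 0.10), Rab3d (-0.27 ± 0.06), Rab8b (-0.24 ± 0.08) and Rab35 (-0.23 ± 0.07). Rab3a and Rab2a were called lower with overlapping libraries. Rab8b was at -0.08 ± 0.08 without the 3 libraries. The count of this comparison rests on single libraries. It was 35 members without KO anti-PD-1 replicate 2, where 3841 of 12749 genes rose and 3703 fell. It was 13 without KO anti-PD-1 replicate 3, where 2293 genes rose and 1761 fell. Without KO combination replicate 2 it was 12, where 1982 genes rose and 1607 fell. Rab35 did not pass without KO anti-PD-1 replicate 3 (-0.17), nor Rab8b without that library (-0.15) or without KO combination replicate 2 or 3 (-0.24 and -0.22).

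The LGG effect itself differed between the genotypes for 26 of 54 members, by the interaction term of limma. It was more positive in knockout than in wild-type mice for 7 members, where 19.5% of all genes were, and more negative for 19, where 15.4% of all genes were. The members' median difference was -0.35 and that of all genes 0.03. Without the 3 libraries that stood apart the counts were 10, where 34.1% of all genes were more positive, and 29, where 28.7% were more negative. The 23 members that rose in wild-type mice included 16 of the 19, and the 8 that fell included 6 of the 7. These counts share the wild-type libraries with the wild-type comparison. Rab15 differed most, by 2.93 ± 0.15, with 1032, 927.9 and 972.1 counts in KO IgG and 1220, 1048 and 1211 in KO LGG where wild-type mice lost most of it. Rab7b differed by 2.53 ± 0.15, Rab27b by 2.27 ± 0.46 and Rab37 by 2.08 ± 0.17. On the negative side were Rab30 (-1.85 ± 0.59), Rab33a (-1.55 ± 0.40), Rab26 (-1.55 ± 0.56) and Rab39b (-1.38 ± 0.32). Rab30 did not pass without WT IgG replicate 3 (-1.61), and Rab26 did not pass with edgeR, with DESeq2, or without 8 of the 12 libraries in turn, which were WT IgG replicates 1 and 2, all WT LGG replicates, KO IgG replicates 1 and 2 and KO LGG replicate 3 (-1.63 to -1.20). Of the delivery Rabs, Rab8b (-0.98 ± 0.11) and Rab13 (-1.03 ± 0.35) differed, and Rab10 and Rab8a were at -0.47 ± 0.21 and -0.42 ± 0.19 with limma adjusted p of 0.095 and 0.097. All 4 differed without the 3 libraries, by -0.93 ± 0.08 for Rab8b, -1.25 ± 0.16 for Rab13, -0.34 ± 0.08 for Rab10 and -0.56 ± 0.09 for Rab8a. Rab12, Rab20, Rab27a and Rab44, which rose in both genotypes, did not pass this test, with differences of -0.31 ± 0.19, -0.46 ± 0.26, -0.28 ± 0.16 and 0.35 ± 0.14. Rab12 (-0.25 ± 0.07), Rab20 (-0.65 ± 0.12) and Rab44 (0.28 ± 0.12) passed it without the 3 libraries, and Rab27a (-0.20 ± 0.13) did not.

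**Figure D4:**
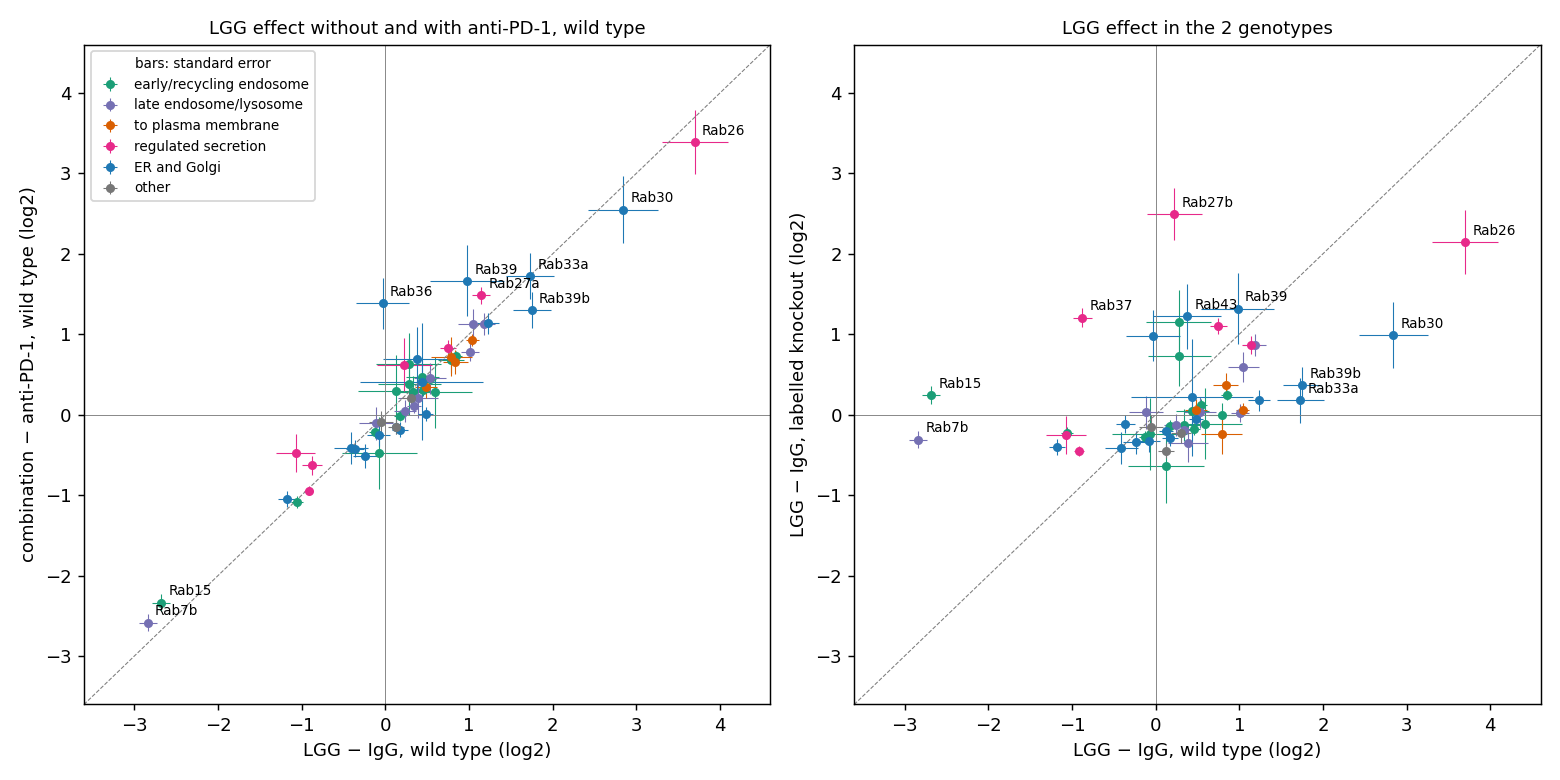
Left, log2 LGG effect of each Rab gene in wild-type mice without antibody (x) against its effect with anti-PD-1 (y). Right, the same x against the LGG effect in labelled knockout mice (y), with bars for the standard error, colours for roles and a dashed line of equality: Rab7b and Rab15 lie near -2.84 and -2.68 on x and at -0.31 and 0.24 on y.

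In mice that received IgG, the genotypes already differed in 31 members. In knockout libraries 19 were higher, where 19.1% of all genes were, and 12 were lower, where 20% of all genes were. The median difference was 0.15. Leaving out the 3 libraries that stood apart gave 27 higher and 13 lower members, where 32.8% and 31.1% of all genes were. With all libraries, lower members differed by more: 11 of the 12 by at least 1 on the log2 scale, against 1 of the 19 higher ones. Of the 7 granule Rabs, 5 were lower and none was higher, with a median of -2.19. Rab37 was at 899.1, 800.4 and 845 in WT IgG and at 123.9, 125 and 110.9 in KO IgG (-2.81 ± 0.12, limma adjusted p = 5.1e-13). Rab27a was at 964.4, 1007 and 873.2 and at 166.2, 153.1 and 184.3 (-2.49 ± 0.11), and Rab44 at 978.6, 1027 and 907.1 and at 211.9, 208 and 216 (-2.19 ± 0.10). Every knockout library of the 3 genes lay far below every wild-type library. Rab27b (-2.02 ± 0.33) and Rab26 were lower too, and Rab3a (-0.16 ± 0.24) and Rab3d (0.13 ± 0.06) did not pass. The same 5 were lower without the 3 libraries, and Rab3d was then higher (0.13 ± 0.05, limma adjusted p = 0.038).

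Lymphocyte and neutrophil markers moved with these genes between the genotypes. In KO against WT under IgG, 13 of 14 T cell markers, 7 of 7 listed NK markers and 5 of 5 listed B cell markers were lower, with summed T cell levels of 15011 to 16200 in WT and 1647 to 1992 in KO and summed NK levels of 36982 to 39195 and 3371 to 3914. Of 8 listed neutrophil markers 6 were lower, with summed levels of 1149 to 1237 in WT and 306 to 335 in KO. Their part in the granule Rab difference was not tested. Rab39b (32.7, 35.2 and 28.2 against 7.82, 4.67 and 5.76), Rab4a (-2.16 ± 0.38), Rab30 (-1.57 ± 0.41), Rab43 (-1.37 ± 0.40), Rab17 of apical recycling (-1.35 ± 0.39) and Rab19 (-0.71 ± 0.10) were lower as well. Rab39 stood at 1.96 to 3.51 counts in KO IgG and 11.97 to 21.46 in WT IgG.

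Higher in knockout IgG libraries were 5 of the 9 late endosome and lysosome Rabs and none was lower, or 7 of the 9 without the 3 libraries that stood apart. Of all genes 19.1% were higher with all libraries and 32.8% without the 3. Rab7b had 3301, 3376 and 3442 counts against 1979, 1835 and 1961 (0.81 ± 0.11), and Rab32 had 2494, 2555 and 2328 against 1464, 1535 and 1427 (0.74 ± 0.08). Rab7 was higher by 0.68 ± 0.13, Rab29 by 0.68 ± 0.24 and Rab9 by 0.45 ± 0.11. Macrophage markers gave 3 higher and 5 lower of 12 in the same comparison. Of the Golgi Rabs, Rab33a was at 79.5, 70.1 and 62.6 against 25.0, 15.4 and 26.0 (1.66 ± 0.28) and Rab6a at 3300, 3084 and 3352 against 1857, 1972 and 1868 (0.77 ± 0.10). None of these overlapped. The 3 X-linked members, Rab9, Rab33a and Rab39b, did not share a direction. Delivery Rabs did not pass, from -0.10 for Rab8b to 0.28 for Rab13. Rab10 (0.14 ± 0.05) and Rab13 (0.28 ± 0.11) were higher without the 3 libraries, and Rab8a and Rab8b did not pass.

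With all libraries in the fit, few members were called for anti-PD-1 alone. In knockout mice that count depended on single libraries. In wild-type mice limma called 0 of 54 members against IgG, where it called 0.0314% of all genes. At an unadjusted p below 0.05 there were 10 members, where 1028 of 12749 genes were. EdgeR on whole reads called 0 members, and DESeq2 called 2, both lower, where it called 75 genes higher and 132 lower of 12254. In a fit on the 6 libraries alone 13 members were called, where 13.8% of all genes were, and without the 3 knockout libraries that stood apart 8 were, where 8.46% of all genes were. In knockout mice 2 members fell, where 1.80% of all genes were called: Rab7b, at 2573, 2873 and 1926 against 3301, 3376 and 3442 (-0.48 ± 0.11), and Rab18, a lipid droplet Rab, at 2195, 2337 and 1818 against 2675, 2634 and 2830 (-0.37 ± 0.08). The count was 0 without KO anti-PD-1 replicate 3 or without any of the 3 KO IgG replicates, 8 without KO anti-PD-1 replicate 1, 19 without KO anti-PD-1 replicate 2, and 7 without the 3 libraries that stood apart, where 8.94% of all genes were called. Rab5a had 945.5, 1894 and 252.8 counts in the 3 KO anti-PD-1 libraries, a spread that no other group showed.

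Adding anti-PD-1 to LGG gave no called member in either genotype. In wild-type mice limma called 0 of 54 for the combination against LGG, where 0.0628% of all genes were called. At an unadjusted p below 0.05 there were 5 members, where 827 of 12749 genes were. Both edgeR and DESeq2 called 0 members. In knockout mice limma called 0, where 0.275% of all genes were called, with 7 members unadjusted, where 879 of 12749 genes were. There edgeR called 0 members and DESeq2 called 2, where DESeq2 called 77 genes higher and 124 lower.

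The regulators of the Rab cycle, taken from lists of known GEFs, GAPs, lipid-cycle proteins and effectors, moved both ways. In wild-type LGG against IgG, 10 of 45 GEFs rose and 10 fell, and 9 of 39 GAPs rose and 11 fell, with medians of 0.13 and -0.02 beside a median near 0 for all genes, of which 27.4% rose and 28.2% fell. Rab3il1, a GEF for Rab8 and Rab3a, fell from 5218 ± 155 to 249 ± 19.1 (SD, n = 3), a log2 change of -4.39 ± 0.08, while Rab8a and Rab8b rose and Rab3a fell. It was at 5261 in KO IgG and 3682 in KO LGG. Rabgef1, the Rab5 GEF Rabex-5, rose from 770.1 ± 63 to 2900 ± 156 (1.91 ± 0.07). Dennd5a, a Golgi and endosome regulator, rose by 1.59 ± 0.14, and Dennd4c, a GEF for Rab10, fell by 1.66 ± 0.38. Among GAPs, Tbc1d4, which acts on Rab10 and Rab8 in insulin-driven delivery, rose from 898.3 ± 27.5 to 4939 ± 315 (2.46 ± 0.13). Rabgap1l rose by 2.12 ± 0.11 and Sgsm1 by 1.65 ± 0.34, and Tbc1d16 fell by 2.66 ± 0.19.

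Of the 10 lipid-cycle proteins, which load, extract and insert the lipid-anchored Rabs, 6 rose and 1 fell, with a median of 0.31, beside the same 27.4% and 28.2% of all genes. Yipf4 rose by 0.95 ± 0.07 and Yipf1 by 0.32 ± 0.12, and Chml, an escort protein for new Rabs, fell by 0.74 ± 0.23. In knockout mice 1 of the 10 rose and 3 fell. Of 51 listed effectors 16 rose and 11 fell in wild-type mice, again beside 27.4% and 28.2%. Rab11fip1, an adaptor of Rab11, rose from 629.7 ± 50.7 to 3901 ± 231 (2.63 ± 0.14), and Myo5b, the motor that recycling Rabs use, from 9.69 ± 2.5 to 42.4 ± 8.8 (2.03 ± 0.40). Rab11fip5, of the same adaptor family, fell by 1.76 ± 0.10. Sytl3, an effector of Rab27, rose by 1.52 ± 0.16. In knockout mice 15 effectors rose and 2 fell, 10 GAPs rose and 3 fell, and 5 GEFs rose and 7 fell, where 18.1% of all genes rose and 14.2% fell.

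Some pairs of close relatives shifted within single libraries. The per-kilobase ratio of Rab27b to Rab27a was 0.0214 to 0.0312 in KO IgG and 0.0720 to 0.110 in KO LGG, and 0.0176 to 0.0258 in WT IgG and 0.00907 to 0.0133 in WT LGG. So the ratio moved in opposite directions in the 2 genotypes, without overlap in either. Rab6b to Rab6a was 0.0394 to 0.0451 in WT IgG and 0.0859 to 0.0922 in WT LGG. Rab11a to Rab11b was 0.923 to 1.02 and 1.29 to 1.37. For Rab5b to Rab5c it was 0.157 to 0.175 and 0.225 to 0.270. These are ratios of levels, with no test, and in these 3 pairs every WT LGG library was above every WT IgG library. The pairs printed are a selection from 13 that were compared, and others overlapped or moved down. Rab1b to Rab1a was 1.85 to 2.09 in WT IgG and 1.66 to 1.92 in WT LGG. For Rab39b to Rab39 it was 1.15 to 2.38 and 2.17 to 4.30, and for Rab3a to Rab3d 0.113 to 0.124 and 0.105 to 0.107.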

How the data were processed

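RNA from 24 libraries in 8 groups of 3 was analysed from 1 deposited table. Its values are a normalised signal per gene: per the submitters' processing notes, the authors' tools were STAR 2.4.0, HTSeq 0.6.1 and DESeq2 with the mouse build mm10, and the annotation and strand setting are not given in the sources used here. The values themselves show gene counts divided by 1 factor per library, as division by the value of 1 read gave whole reads for 100% of values within a tolerance of 0.001, and the reads per library ran from 24531528 to 49272593. For these reads, edgeR called 3606 genes higher and 3564 lower with LGG in wild-type mice. Depth sets counting error only, and members below about 20 normalised counts are the least precise.

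Members were matched by symbol in the whole table. Values were taken as log2(value + 1), with a pseudocount of 1, for the 12749 of 12767 genes with a mean of at least 10, and limma 3.58.1 in R 4.3.3 fitted all 8 groups together, with Benjamini-Hochberg adjustment over all genes tested and a threshold of 0.05. The spread is thus shared between groups. The difference between genotypes in the LGG effect was an interaction term. Alternatives were a pseudocount of 8, no filter, TMM scaling, a fit on the compared libraries alone, a replicate block, each library left out in turn, the 3 libraries that stood apart left out, and edgeR 4.0.16 and DESeq2 1.42.0 on the whole reads. Scripts were tested on simulated data. Lengths came from the annotation of build GRCm38 (12759 genes) and promoters from RefSeq. Named with values were the called members with the largest changes in each direction, up to 8 for LGG in wild-type mice and up to 4 elsewhere, with a mean of at least 20 in the higher group and no overlap, a set of members of interest in LGG against IgG (Rab4a, 5a, 5b, 5c, 7, 7b, 8b, 10, 11a, 20, 27a, 27b, 32, 38, 39 and 43), and up to 4 called regulators per list, of which 1 is not reported here. Other members are described by role. Other features singled out in the text (Rab2b, Rab35 and Rab36) were chosen after their values were seen. The members, roles and gene lists were chosen with earlier results of these data known. Marker lists were printed only where they moved with a Rab result.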

Additional observations from a re-analysis of the deposited data

Results flagged for a closer look

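The LGG effect differed between knockout and wild-type mice, by the interaction term of limma, for 8 members with the largest differences. On the log2 scale, as knockout minus wild type, the difference was 2.93 for Rab15, 2.53 for Rab7b, 2.27 for Rab27b and 2.08 for Rab37. It was -1.85 for Rab30, -1.55 for Rab33a, -1.55 for Rab26 and -1.38 for Rab39b. Rab26 stood at 0.72 to 2.34 normalised counts in KO IgG, and its difference did not pass the threshold with edgeR, with DESeq2, or on leaving out any of 8 of the 12 libraries compared.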

How the results depend on the processing

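Of 84 results for single genes, 55 kept their direction and side of the threshold in every alternative. The number of members called in KO LGG against IgG (19) was 11 in a fit on the compared libraries alone and 36 without the 3 libraries that stood apart, and for KO combination against anti-PD-1 (20) it was 5 and 31. For anti-PD-1 in wild-type mice (0) it was 13 in the fit on the compared libraries, 8 without the 3 libraries and 2 with DESeq2, beside the calls over all genes given above. For anti-PD-1 in KO (2) it was 0, 7 and, with DESeq2, 4. For the combination against LGG (0 in each genotype) it was 4 in wild-type mice without the 3 libraries, where 493 genes rose and 602 fell. In KO mice it was 4 in that fit, where 611 genes rose and 826 fell, and 2 with DESeq2, where 77 rose and 124 fell. Leaving out each library in turn gave 12 to 35 calls for KO combination against anti-PD-1 and 0 to 19 for anti-PD-1 in KO mice. The calls over all genes, given above, moved as well. In KO LGG against IgG these directions turned: Rab11a was 0.0027 with TMM scaling, 0.014 with edgeR and 0.017 with DESeq2, and -0.16 to 0.11 on leaving out a library. Without the 3 libraries Rab5a was 0.28 and Rab38 -0.065. On leaving out a library Rab5a ranged from -0.36 to 0.28, Rab5b from -0.12 to 0.32, Rab38 from -0.11 to 0.17 and Rab8b from -0.0041 to 0.11. The cause was not tested. Replicate numbers did not pair the libraries: correlations of same-numbered deviations ran from -0.43 to 0.52. With the replicate block 1 member was called for anti-PD-1 in KO mice, and the other counts stayed within 1.5 times. Depth limits Rab26, Rab39 and the other members near 0 in KO mice.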
